A study of Mus musculus with 12 samples.

Results

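The 9 genes described here encode ion channels and a gap junction protein of heart muscle: Kcnd2, Kcnd3, Kcnip2, Kcna5, Kcnq1, Kcnj2, Kcnj11, Hcn4 and Gja1. They were chosen by name, for their roles in repolarisation, pacemaking and cell coupling, and each matched a single row among the 54751 features of the count table. The choice also allowed for a sodium channel, but none is among the 9, so sodium channels enter only through a list of related genes. Total RNA of mouse hearts was sequenced in 3 libraries of the genotype Rexo2loxP/loxP with a +/Ckmm allele, labelled knockout, and in 3 libraries of Rexo2loxP/loxP alone, labelled control. All came from C57BL/6N mice at 52 weeks of age, so both groups carry the floxed Rexo2 alleles and differ by the Ckmm allele. The Ckmm allele takes its name from muscle creatine kinase; that promoter serves in many mouse lines to express Cre in striated muscle. Effects of that allele and of Rexo2 loss cannot be told apart. Libraries are called by their group and the number in their column name, since those names carry no replicate number. The labels do not say that every library is a separate animal, and p-values measure the spread between these libraries, which may be technical.

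A heartbeat ends when potassium leaves the muscle cell and the membrane repolarises. In mouse ventricle a fast transient outward current and several delayed rectifiers do most of this work, an inward rectifier holds the resting potential, and an ATP-sensitive channel couples excitability to the energy state of the cell. Pacemaker channels drive spontaneous firing in nodal cells, and gap junctions pass the action potential from cell to cell.

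Depth ranged from 41979163 to 50764023 reads per library, of which 71.5% to 71.9% in knockout and 69.4% to 70.0% in control lay on features of mitochondrial DNA. Control 490 was set off from the rest, with a score of 30.1 on the leading principal component of the tested features (26.4% of variance), where the other 5 scored -16.7 to 5.63. On the next component (22.5%) knockout 492 and knockout 501 lay at opposite ends, at 25.5 and -25.9, with the other 4 between -2.64 and 2.47. Rexo2, an oligoribonuclease gene, had 274, 288 and 314 normalised counts in knockout 492, 499 and 501, against 329.7, 368 and 293 in control 490, 498 and 502, so the groups overlapped (log2 fold change -0.17, SE 0.0999). Which exons are floxed is not stated in the labels, so the summed Rexo2 count is no check of genotype, and knockout names the labelled group.

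Upstream sequence is shown for 3 genes whose values separate single libraries below: Kcna5 and Gja1, which varied most between libraries, and Kcnj2, which was high in 1 library. RefSeq promoters on GRCm38.p6 were matched for 7 of the 9 genes, and the 250 bases before the transcript start are printed 5′ to 3′ on the gene's strand, where position -1 is the last base. The stretches are chr6:126535556-126535805 on the minus strand for Kcna5, chr10:56377050-56377299 on the plus strand for Gja1 and chr11:111065914-111066163 on the plus strand for Kcnj2. Capitals mark matches, on either strand, to any of 6 motifs: the E-box CACGTG, the D-box TTATGNAA, the palindromic glucocorticoid response element, the AP-1 site TGANTCA, the GC box GGGCGG and the TATA box TATAAA. Genes and motifs were chosen after the values were seen.
Kcna5: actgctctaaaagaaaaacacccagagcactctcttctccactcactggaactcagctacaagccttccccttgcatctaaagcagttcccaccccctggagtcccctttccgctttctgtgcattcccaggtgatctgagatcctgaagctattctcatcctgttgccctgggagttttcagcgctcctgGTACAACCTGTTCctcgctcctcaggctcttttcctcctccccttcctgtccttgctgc
Gja1: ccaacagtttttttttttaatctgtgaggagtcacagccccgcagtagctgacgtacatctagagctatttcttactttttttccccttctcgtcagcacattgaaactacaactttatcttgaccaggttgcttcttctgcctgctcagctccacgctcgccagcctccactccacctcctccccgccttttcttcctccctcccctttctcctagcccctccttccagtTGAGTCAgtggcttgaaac
Kcnj2: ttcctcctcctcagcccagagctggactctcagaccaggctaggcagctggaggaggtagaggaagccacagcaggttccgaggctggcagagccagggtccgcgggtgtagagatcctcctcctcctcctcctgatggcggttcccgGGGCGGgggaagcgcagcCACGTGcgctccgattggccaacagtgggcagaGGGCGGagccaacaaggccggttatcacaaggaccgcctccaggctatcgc
Kcna5 held a match to the glucocorticoid response element at position -59, a motif found in 0.387% of the 32851 upstream stretches of this length in the table. Gja1 held an AP-1 match at position -19, where 6.75% of all stretches hold 1 or more. The Kcnj2 stretch held an E-box at position -84, found in 6.02% of all, and GC boxes at positions -102 and -51, a motif found in 32.7%. Among the 7 stretches, GC boxes were also present in Kcnd2, Kcnip2 and Hcn4, and the D-box and TATA box letters were in none of them. These matches describe letters in a window and were not tested as binding sites.

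None of the 9 channel genes differed between knockout-labelled and control hearts by limma at an adjusted p of 0.05, a rule that called 0.0219% of the 18250 features tested (4 features). At an unadjusted p under 0.05 the count was also 0 of 9, where 3.7% of all tested features passed (1.72% higher and 1.98% lower in knockout), and the groups overlapped in all 9 genes, where 9.51% of tested features did not overlap. With edgeR on the recovered reads, DESeq2 on the same reads and the authors' deposited table, 0 of 9 were called as well, and 0 of 9 were at an unadjusted p under 0.05, where the deposited table called 0.437% of the 7550 features to which it gives an adjusted p and had 0.999% of 32228 at an unadjusted p under 0.05. DESeq2 on the recovered reads gave nearly the same values as the deposited table, such as -0.133 for Kcnd2 in both, so they are not separate checks. The 4 limma calls were all lower in knockout-labelled hearts. With scaling to equal nuclear totals limma also called 4 features, not necessarily the same ones, with 1 higher and 3 lower. The largest difference in size among the 9 was -0.14 on the log2 scale, for Kcnd2. The 95% intervals as folds of knockout over control ran from 0.737, the lower bound of Kcna5, to 1.24, the upper bound of Kcnj2. In bulk tissue, fewer cells of a type and less RNA per cell cannot be told apart.

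**Figure D1:**
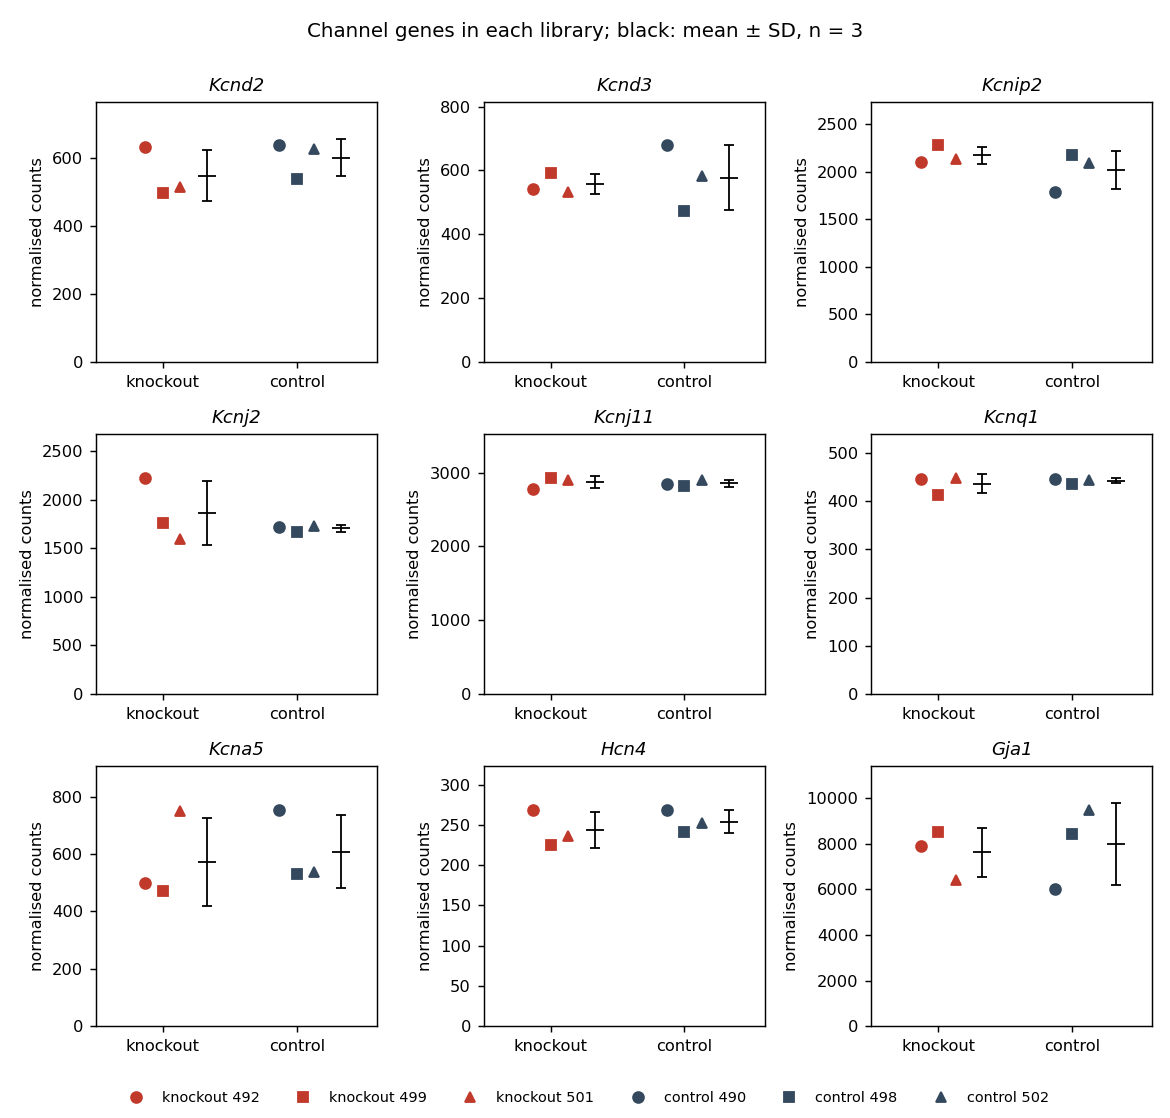
Normalised counts (vertical axes, from 0) of each channel gene in the 3 knockout and 3 control libraries, with the mean ± SD in black. Points of the groups overlap in every panel, and the Kcna5 panel has a library near 750.2 in each group.

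Kcnd2 and Kcnd3 encode the pore-forming subunits of the fast transient outward channel, and Kcnip2 encodes the calcium-binding subunit that brings them to the membrane. Kcnd2 (ENSMUSG00000060882.5, chromosome 6, 21215346 to 21729805 on GRCm38.p6, the build of all positions given) had 632, 496 and 514 normalised counts in knockout 492, 499 and 501, against 636, 538 and 627 in control 490, 498 and 502. A knockout library stood within a few counts of the highest control, and the other knockout libraries were the lowest of the 6. Kcnd2 averaged 548 ± 73.9 in knockout and 600.2 ± 54.3 in control (SD, n = 3 each), a log2 fold change of -0.14 (SE 0.097, limma adjusted p = 1.00). Without knockout 492 the log2 fold change was -0.24 (limma adjusted p = 0.961), and over all alternatives the adjusted p ran from 0.608 to 1.00.

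Kcnd3 (ENSMUSG00000040896.16, chromosome 3, 105451890 to 105674002) had 543, 593 and 534 counts in knockout 492, 499 and 501, against 678, 474 and 581 in control 490, 498 and 502. The controls held both the highest and the lowest library, so the knockout values lay inside the control range. Its log2 fold change was -0.040 with a 95% interval from -0.27 to 0.19, and it was 0.083 without control 490. The antisense-named lncRNA gene Kcnd3os overlaps the start of Kcnd3 and held 11 to 35 reads per library. The labels do not say whether counting used strand, so Kcnd3os and Kcnd3 reads from the shared stretch may not be separated.

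Kcnip2 (ENSMUSG00000025221.15, chromosome 19, 45792346 to 45816422) had 2101, 2279 and 2140.1 counts in knockout 492, 499 and 501, against 1792, 2177 and 2089 in control 490, 498 and 502. Control 490 was the lowest library, and the other 5 lay close together. The means were 2173 ± 93.7 in knockout and 2019.6 ± 202 in control (SD, n = 3 each), a log2 fold change of 0.11 (SE 0.069, limma adjusted p = 1.00). Without control 490 the log2 fold change was 0.026. Within each library, the log2 ratio of Kcnip2 to Kcnd2 was 1.73, 2.20 and 2.05 in knockout 492, 499 and 501, against 1.49, 2.02 and 1.74 in control 490, 498 and 502. The groups overlapped in this ratio of counts, which is not per length, and the difference of 0.25 had an exact permutation p of 0.3, 2-sided, or 0.8 adjusted over 8 ratios. No ratio of 3 libraries against 3 can give a p below 0.1. The log2 ratio of Kcnd2 to Kcnd3 differed by -0.096 (exact permutation p = 0.7).

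Of 10 related genes of the transient outward current, 6 were tested and 0 were called in either direction, with a median log2 fold change of -0.0065 where all tested features had 0.00056. The tested genes of smallest p were Kcnip1, another calcium-binding partner gene, at -0.53 with 6 to 20 reads per library, and Kcnab1, an accessory beta subunit gene, at 0.32 with 16 to 30 reads.

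Kcna5 and Kcnq1 encode delayed rectifier pores: Kcna5 an ultrarapid current of mouse ventricle, Kcnq1 a slow current that in large mammals depends on the Kcne1 subunit. Kcna5 (ENSMUSG00000045534.4, chromosome 6, 126532551 to 126535555) had 498, 472 and 750.2 counts in knockout 492, 499 and 501, against 755, 530.2 and 538 in control 490, 498 and 502. A single library in each group, knockout 501 and control 490, was high, and the other 4 lay between 472 and 538. Kcna5 averaged 573 ± 154 in knockout and 608 ± 128 in control (SD, n = 3 each), a log2 fold change of -0.097 (SE 0.16, limma adjusted p = 1.00). That spread is a coefficient of variation of 26.8% in knockout and 21.0% in control, where counting alone would give 4.64% at the fewest reads, 464. Single libraries decided the direction, with -0.31 without knockout 501 (limma adjusted p = 0.999) and 0.069 without control 490 (limma adjusted p = 0.996).

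Kcnq1 (ENSMUSG00000009545.14, chromosome 7, 143106877 to 143427050) had 445, 414 and 449 counts in knockout 492, 499 and 501, against 447, 436 and 444 in control 490, 498 and 502. Knockout 499 was the lowest, and the other 5 lay between 436 and 449. Its residual SD of 0.048 on the log2 scale sat at percentile 6.19 of all tested features, where low percentiles are the steadiest. Its log2 fold change was -0.021 with a 95% interval from -0.18 to 0.14. The lncRNA gene Kcnq1ot1, an imprinted transcript, lies inside Kcnq1 at 143213111 to 143296547 and held 2926, 2981 and 3049 counts in knockout 492, 499 and 501, against 2799, 2984 and 2834 in control 490, 498 and 502. Those groups overlapped too (log2 fold change 0.056, SE 0.049). The log2 ratio of Kcnq1 to Kcnq1ot1 differed by -0.077 (exact permutation p = 0.3), and since strand use in counting is unknown, Kcnq1 reads may include some of the lncRNA. Kcne1 held only 14 to 26 reads per library, and its ratio with Kcnq1 differed by 0.24 (exact permutation p = 0.4).

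Of 14 related delayed rectifier genes 9 were tested, 0 were called in either direction, and the median log2 fold change was -0.15. Kcna7, a Kcna5 relative, had 60.1, 84.3 and 65.4 counts in knockout 492, 499 and 501, against 88.5, 84.6 and 88.5 in control 490, 498 and 502. Its groups did not overlap, by a margin under 1 count, where 9.51% of all tested features did not overlap. Its log2 fold change of -0.33 had a limma adjusted p of 1.00. Kcng2, a silent modifier subunit gene, was at -0.12, with overlap.

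Kcnj2 encodes the main pore of the inward rectifier that sets the resting potential, and Kcnj11 the pore of the ATP-sensitive channel. Kcnj2 (ENSMUSG00000041695.2, chromosome 11, 111066164 to 111076825) had 2227, 1755 and 1596 counts in knockout 492, 499 and 501, against 1723, 1666 and 1729.8 in control 490, 498 and 502. Knockout 492 was high and knockout 501 the lowest of the 6, while the controls lay close together. Kcnj2 averaged 1859.6 ± 328 in knockout and 1706 ± 35.1 in control (SD, n = 3 each), a log2 fold change of 0.11 (SE 0.092, limma adjusted p = 1.00). The difference was -0.027 without knockout 492 and 0.21 without knockout 501 (limma adjusted p = 0.999).

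Kcnj11 (ENSMUSG00000096146.2, chromosome 7, 46097123 to 46100952) had 2773, 2932 and 2905 counts in knockout 492, 499 and 501, against 2838, 2813 and 2905 in control 490, 498 and 502. Its residual SD of 0.035 on the log2 scale was the lowest of the 9, with coefficients of variation of 2.98% in knockout and 1.68% in control, where counting alone gives 1.97% at its fewest reads. The log2 fold change was 0.0088 with a 95% interval from -0.094 to 0.11, which is 0.937 to 1.08 as a fold. Abcc9, which encodes the sulphonylurea receptor paired with such pores, was at -0.090 on the log2 scale, with overlap, and the log2 ratio of Kcnj11 to Abcc9 differed by 0.099 (exact permutation p = 0.3). All 8 related inward rectifier genes were tested and 0 were called, with a median of -0.024 and Kcnj4 at 0.35 on 7 to 17 reads. The log2 ratio of Kcnj2 to its relative Kcnj12 differed by 0.17 (exact permutation p = 0.7). The 6 tandem-pore potassium channel genes, which carry background current, also had 0 calls, with a median of 0.14, Kcnk5 at 0.43 on 12 to 23 reads and Kcnk3 at 0.070.

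**Figure D2:**
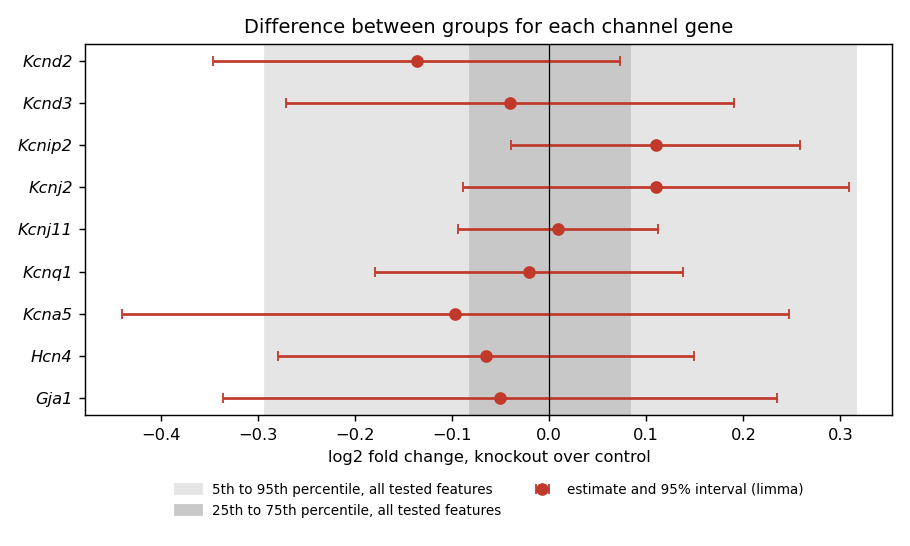
Log2 fold change of knockout over control (horizontal axis) for each channel gene, with limma's 95% interval, over shaded bands for all 18250 tested features. Every interval crosses 0, and the estimates run from -0.14 for Kcnd2 to 0.11 for Kcnj2.

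Hcn4 encodes the main pacemaker channel of the sinoatrial node. Hcn4 (ENSMUSG00000032338.9, chromosome 9, 58822949 to 58863175) had 268, 225 and 236 counts in knockout 492, 499 and 501, against 269, 241 and 252 in control 490, 498 and 502. The values interleaved between groups, and the 6 libraries ranked in the same order as for Kcnd2, from control 490 at the top to knockout 499 at the bottom. Hcn4 averaged 243 ± 22.4 in knockout and 254 ± 14.2 in control (SD, n = 3 each), a log2 fold change of -0.065 (SE 0.099, limma adjusted p = 1.00).

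Among 4 genes related to Hcn4, 3 were tested and 0 were called. Hcn2, another pacemaker channel gene, had 161, 179.9 and 239 counts in knockout 492, 499 and 501, against 113, 172 and 228 in control 490, 498 and 502. Its groups overlapped, with a log2 fold change of 0.22 (limma adjusted p = 1.00), and the log2 ratio of Hcn4 to Hcn2 differed by -0.28 (exact permutation p = 0.6).

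The tissue is labelled heart, yet the atrial muscle markers Myl7 and Sln were at or near 0. Myl7, the atrial myosin regulatory light chain gene, had 0 reads in 5 of the 6 libraries and 3 in knockout 501, and Sln, the atrial sarcolipin gene, had 0 reads in 5 and 1 in control 490. A count of 0 allows up to 3 reads in a library, by counting error alone. Of the other atrial markers, Myl4 held 8 to 18 reads, Bmp10 1 to 12 and Dkk3 28 to 52. Nppa, which stressed ventricle also expresses, held 1681 to 2467 counts in knockout and 1934 to 2746 in control. The ventricular light chain gene Myl2 held 23159 to 26408 counts in knockout and 23131 to 25035 in control. Of the 8 sinoatrial and conduction markers, Vsnl1 was at 0 in all libraries, Isl1 held 0 to 1 reads and Shox2 5 to 15. The list summed to 1517 to 1568 counts in knockout and 1473 to 1644 in control. Smoc2 alone held 953 to 1025 counts in knockout and 945 to 1093 in control, so the sum mostly follows that gene. Hcn4 was thus measured in libraries with at most 3 reads of Myl7 and of Sln, at 209 to 301 reads each. Kcnj3 and Kcnj5, which encode the acetylcholine-gated channel best known from atria, were nonetheless present, Kcnj3 at 2034, 1704 and 1874 counts in knockout 492, 499 and 501, against 2196, 1687 and 1806 in control 490, 498 and 502.

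**Figure D3:**
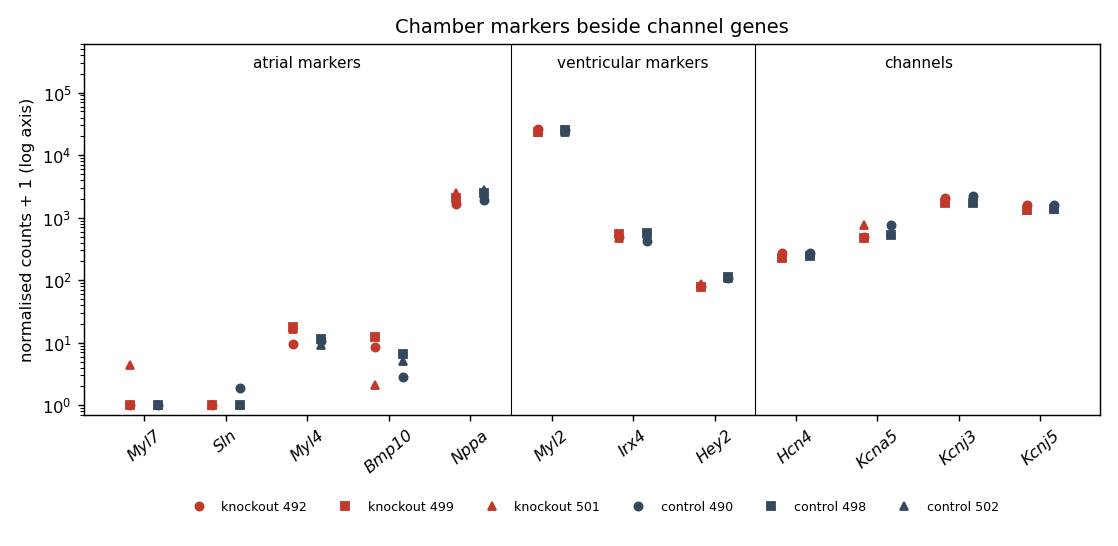
Normalised counts plus 1 (log axis) of atrial markers other than Dkk3, ventricular markers and 4 channel genes in each library. Knockout is drawn left of control for every gene. Myl7 and Sln sit at 1, which is 0 counts, in 5 libraries each, while Hcn4 lies between 225 and 269 counts.

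Gja1 encodes the main connexin of ventricular gap junctions. Gja1 (ENSMUSG00000050953.10, chromosome 10, 56377300 to 56390419) had 7921, 8511 and 6435 counts in knockout 492, 499 and 501, against 6008, 8451 and 9502 in control 490, 498 and 502. The lowest libraries were control 490 and knockout 501, and the other 4 lay at 7921 or above. Gja1 averaged 7622 ± 1069.7 in knockout and 7987 ± 1793 in control (SD, n = 3 each), a log2 fold change of -0.051 (SE 0.13, limma adjusted p = 1.00). Its coefficient of variation was 14.0% in knockout and 22.4% in control, where counting alone would give 1.32% at its fewest reads, 5704. Single libraries decided the direction, with -0.24 without control 490 (limma adjusted p = 0.996) and 0.087 without control 502 (limma adjusted p = 1.00).

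Other connexins did not differ by this test either. Of 13 connexin and junction scaffold genes 10 were tested and 0 were called, with a median of 0.0020. Ctnna3, which encodes an alpha catenin of the intercalated disc, had 976, 962 and 1019 counts in knockout 492, 499 and 501, against 1158, 1076 and 1099 in control 490, 498 and 502. The groups did not overlap, and the log2 fold change was -0.17 (limma adjusted p = 1.00). Tjp1, a scaffold that binds this connexin, also did not overlap, with a log2 fold change of only 0.026. Over all tested features 9.51% did not overlap. Gja3 was at 0.12 and Gja5, a connexin gene of the conduction system, at 0.015, both with overlap, and the log2 ratio of Gja1 to Gja5 differed by -0.066 (exact permutation p = 0.9).

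Of the 9 genes, Kcna5 and Gja1 varied most between libraries of the same genotype. Kcna5 was highest and Gja1 lowest in the same pair of libraries, control 490 and knockout 501, a pattern named after the values were seen. Residual SDs on the log2 scale were 0.33 for Kcna5 and 0.28 for Gja1, above 83.3% and 78.1% of all tested features, where the median of all was 0.15. Klf15, a transcription factor gene known to act on ion channel genes in mouse heart, had 896, 966 and 1247 counts in knockout 492, 499 and 501, against 1247, 937 and 914 in control 490, 498 and 502. So Klf15 was also highest in that pair. Per1, a clock repressor gene, had 725, 856 and 1218 counts in knockout 492, 499 and 501, against 1148, 854 and 828 in control 490, 498 and 502. Per2, Hlf and Irx3 had the same pair on top. Over the whole lists the pair was highest in 6 of the 14 clock genes and lowest in 1. Among the 10 tested transcription factor genes the pair was highest in 2 and lowest in 1. Of all tested features, 8.63% had the pair highest and 7.9% had it lowest. Among the 9 channel genes the pair was highest for Kcna5 and, by a few counts, Kcnq1, and lowest for Gja1. Pdk4, a kinase gene of the fasting response added for this comparison, had 3364, 2038 and 4623 counts in knockout 492, 499 and 501, against 5611, 1989 and 1338 in control 490, 498 and 502, again with that pair highest. The part of these genes in the Kcna5 and Gja1 values was not tested.

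**Figure D4:**
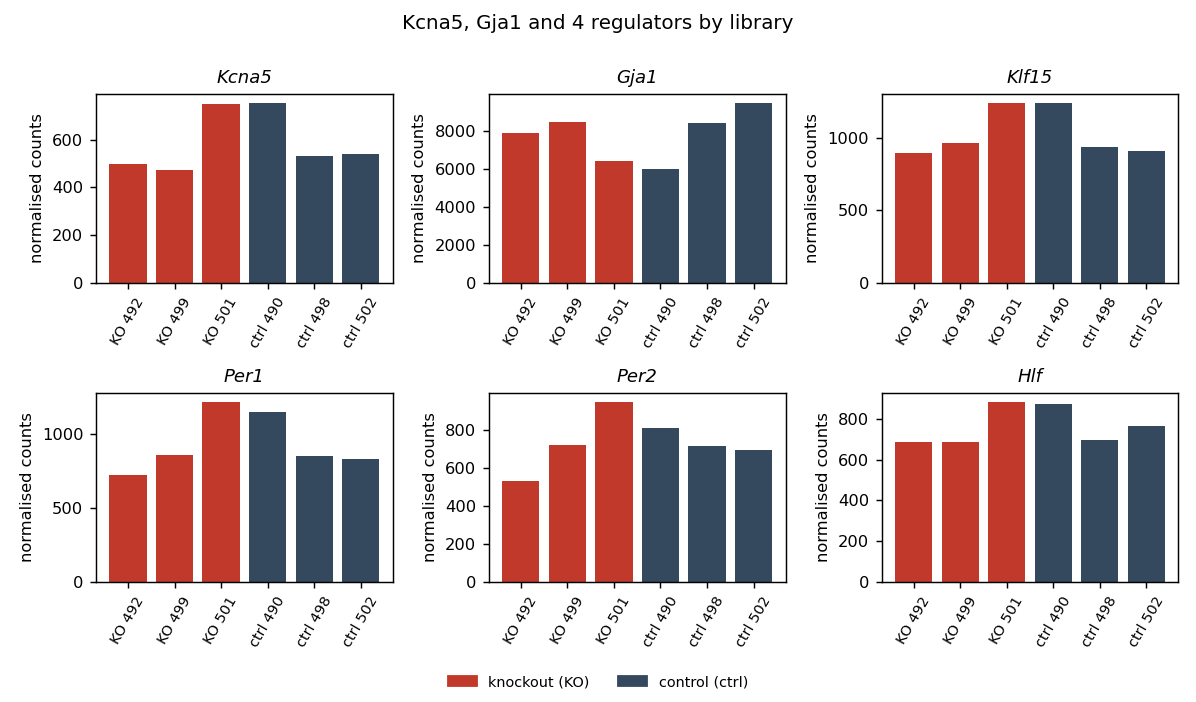
Normalised counts (bars, from 0) of Kcna5, Gja1, Klf15, Per1, Per2 and Hlf in each library, knockout in red and control in dark blue. Knockout 501 and control 490 hold the tallest bars for every gene but Gja1, for which they hold the lowest, 6435 and 6008 counts.

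The clock list had 0 called of 14 and a median of -0.00066, with Arntl at 0.33 and Ciart at -0.21. Transcription factors of channel genes had 0 called of 10 tested (median -0.0084), with Irx3, which acts in the conduction system, at -0.13. Hey2, a repressor gene of ventricular muscle, had 80.5, 77.6 and 85.7 counts in knockout 492, 499 and 501, against 108, 112 and 108 in control 490, 498 and 502. It was lower in all 3 knockout libraries, with a log2 fold change of -0.42, but did not pass the test (limma adjusted p = 1.00). Of 14 sodium channel subunit and regulator genes 12 were tested and 0 were called (median -0.022), with Scn3a, a pore gene, at 0.34 and Scn4b, an auxiliary subunit gene, at 0.20. Over all 9 related lists 78 distinct genes were tested, 0 were called by limma, 3 were at an unadjusted p under 0.05, where 3.7% of all features were, and 4 had groups that did not overlap (9.51% of all features).

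**Figure D5:**
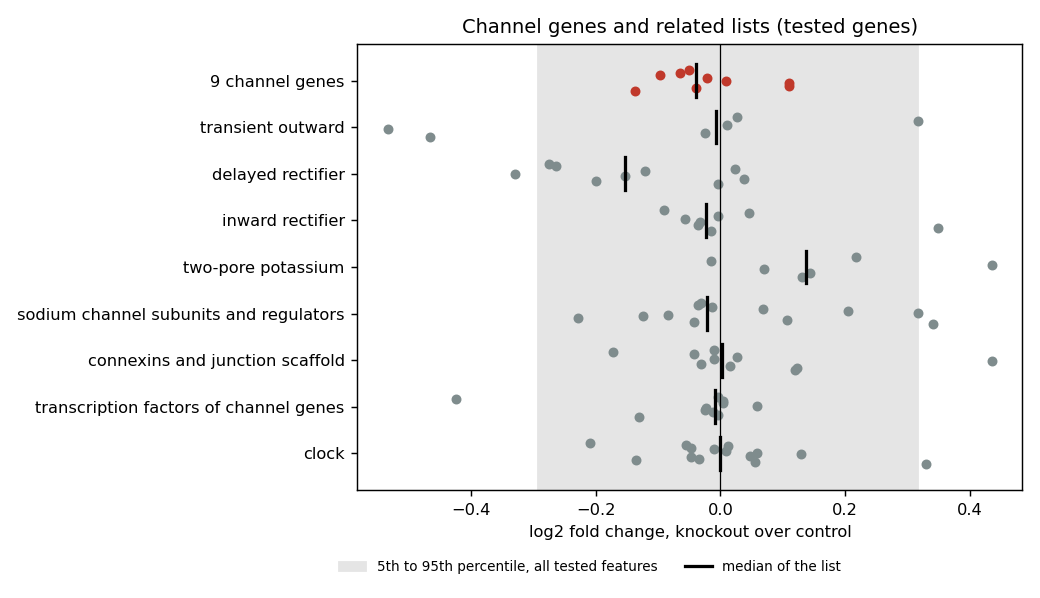
Log2 fold change of knockout over control (horizontal axis) of each tested gene in the 9 channel genes and 8 of the related lists, with list medians as black bars and the 5th to 95th percentile of all features shaded. The channel genes lie between -0.14 and 0.11, inside the shaded band from -0.29 to 0.32.

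Summed markers of other cell types overlapped between the groups, apart from a short list of neuron genes given last. The 7 cardiomyocyte markers summed to 397286 to 410304 counts in knockout and 407222 to 431401 in control, the 7 fibroblast markers to 7789 to 8614 and 7948 to 8039, the 6 endothelial markers to 11522 to 11805 and 11035 to 11989.9, and the 5 smooth muscle and pericyte markers to 16428 to 17068 and 16349 to 16616, with knockout first in each. The 6 leukocyte markers summed to 924 to 1051 counts in knockout and 811 to 993 in control. A single gene can dominate a sum, as Myh6 did with 261196 to 275482 counts in knockout and 266201 to 290254 in control. Within these lists Mb and Pdgfra were lower and Adgre1 higher in knockout without overlap, where 9.51% of all tested features did not overlap. The 5 skeletal muscle markers summed to a median of 6.77 counts in knockout and 5.64 in control, with Myh4 at 0 in all libraries, fat markers to at most 144 in knockout and 133 in control, and the 3 lung markers were at 0 throughout. The 6 neuron markers summed to 30.5 to 49.4 counts in knockout and 55.5 to 68.2 in control, without overlap, with Th and Chga at 0 in all libraries. Most of that sum came from Dbh and Tubb3, the only 2 of the 6 tested. The part of these cells in the channel values was not tested. Across the 9 channel genes, 3 lay above 0 and 6 below, with a median log2 fold change of -0.040.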

How the data were processed

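The data are normalised counts per gene that the authors deposited, a signal made by dividing read counts by a size factor per library; the submitters' processing notes name Bowtie2 2.3.4.1, bedtools, featureCounts, R 3.5.2, DESeq2 1.22.2 and the builds mm10 and GRCm38 without their roles. Ribosomal RNA was depleted and cDNA primed with random hexamers, per the labels' protocols. A results table deposited by the authors gives log2 fold changes, a test score and p-values, used as given. Divided by the value of a single read in its library, 100% of 156689 nonzero entries came out whole (tolerance 0.01). Ensembl identifiers were joined to symbols without version for 54686 of 54715. Positions are from RefSeq on GRCm38.p6.

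Values were tested as log2(value + 1), which understates changes of low genes, with limma 3.58.1 (trended prior, 2-sided, genotype only) in R 4.3.3 on 18250 features whose mean reached 10, with Benjamini-Hochberg adjustment at 0.05. Fold changes are knockout over control. Log2 ratios within libraries were compared by exact permutation tests. Alternatives were the pseudocount (0.5, 10; 0 for ratios), the filter (none, 50), scaling (equal totals, equal nuclear totals, TMM), limma without trend or with robust moderation, edgeR 4.0.16 and DESeq2 1.42.0 on recovered reads, the deposited table, and leaving out each library. The fits were tested on simulated data with the same spread setting for all features and no outlying library. That does not show how they behave on libraries that vary as these do. Libraries within a group differed by more than counting noise (chi-square per degree of freedom 3.52 to 15.0), so none was treated as a duplicate deposit; this does not show that they are separate animals. Levels are not compared between genes, since transcript lengths were not used here. Named beyond the 9 genes are Rexo2, overlapping genes, the members of ratio pairs and, from each related list, up to 4 called genes or the 2 of smallest p. Kcnj3, Kcnj5, Kcnv2 and Tjp1 come from the related lists but outside this rule, and Pdk4 was added for a comparison. Others are said to be chosen after their values were seen, or were marker genes. The genes and lists were chosen with earlier results of these data known. Some genes of the related lists are not reported here. Libraries of mitochondrial RNA ends are not analysed here.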

Additional observations from a re-analysis of the deposited data

How the results depend on the processing

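The count of called channel genes stayed at 0 of 9 under all 18 alternatives, as did each of the 9 related lists at 0 called. Among these, DESeq2 on the recovered reads and the deposited table gave nearly the same values, so neither adds to the other. The count over all features, 4 in the main test, was 12 with no filter on low values, 37 with scaling to equal totals, 0 for limma without a trend (835 at an unadjusted p under 0.05), 12 with robust moderation, 33 for DESeq2 on the recovered reads and 33 in the authors' deposited table, and ran from 1 to 8 when 1 library was left out. Scaling to equal totals, which shifts the median of all features by -0.069, moved the median of the 9 genes to -0.11 and Kcnj11 to -0.061. Scaling to equal nuclear totals turned Kcnq1 to 0.0064. Leaving out 1 library gave ranges that cross 0 for Kcnd3 (-0.18 to 0.083), Kcnj2 (-0.027 to 0.21), Kcnj11 (-0.0069 to 0.033), Kcnq1 (-0.043 to 0.016), Kcna5 (-0.31 to 0.069), Gja1 (-0.24 to 0.087) and the median of the 9 (-0.031 to 0.0053), and for the log2 ratios Kcnd2 to Kcnd3 (-0.22 to 0.017), Kcnj2 to Kcnj12 (-0.047 to 0.34), Hcn4 to Hcn2 (-0.52 to 0.031) and Gja1 to Gja5 (-0.31 to 0.11). Kcnd2, Kcnip2 and Hcn4 kept their sign in all 18. At an unadjusted p under 0.05, limma had 0 of the 9 except without knockout 492 (Kcnd2), without knockout 501 (Kcnj2 and Kcna5), without control 490 (Gja1) and without control 498 (Kcnip2). Over all 18250 features, those fits had 906, 749, 783 and 614 at an unadjusted p under 0.05, in the same order. The causes were not tested. No paired analysis was possible because the columns carry library numbers but no replicate numbers. With 3 libraries a group, the median SE of 0.12 on the log2 scale limits what could be called, and misses do not show that levels were equal.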

Other observations

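Markers of nerve cells and of the conduction system, which share the heart's excitable tissue with these channels, had some of the lower unadjusted p-values among the lists, and were named after their values were seen. The 6 neuron markers summed to 49.4, 37.9 and 30.5 counts in knockout 492, 499 and 501, against 67.0, 55.5 and 68.2 in control 490, 498 and 502, without overlap, while Th and Chga were at 0 in all 6. Only 2 of the 6 were tested, Dbh and Tubb3, and they held most of the sum. Dbh, the noradrenaline-synthesising enzyme gene, was at -0.63 on 16 to 42 reads per library, with overlap. Tubb3, a neuronal tubulin gene, was at -1.01 on 5 to 29 reads, without overlap, where 9.51% of all tested features did not overlap. Neither passed the test (limma adjusted p = 1.00). Prph held 0 to 6 reads and Snap25 0 to 1. Cntn2, a marker gene of the Purkinje network, had 102, 90.9 and 92.5 counts in knockout 492, 499 and 501, against 117, 122 and 133 in control 490, 498 and 502, with a log2 fold change of -0.38 (limma adjusted p = 1.00). Of the 5 tested sinoatrial and conduction markers, 3 lay above 0 and 2 below, with a median log2 fold change of 0.0038. Adgre1, a macrophage marker gene, was at 0.35 without overlap (limma adjusted p = 1.00).

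Kcnv2, a delayed rectifier modifier gene outside the naming rule, also peaked in control 490. It had 333, 304 and 361 counts in knockout 492, 499 and 501, against 488, 264 and 269.7 in control 490, 498 and 502, and overlapped between groups.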
